A study of Mus musculus with 8 samples.

Results

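The semaphorins, plexins and neuropilins were compared between epithelium and mesenchyme of the embryonic mouse lung. Genes were chosen by their symbols, which gave 19 semaphorins, 9 plexins and 2 neuropilins, or 30 genes of the 18996 analysed. The rule uses no measured value, although the members were chosen with earlier results of these data known. Semaphorins are ligands that steer axons, blood vessels and epithelial sheets. Plexins are their signaling receptors, and neuropilins are co-receptors that hold the secreted class 3 semaphorins for the plexins. The semaphorins of classes 4 to 6 span the membrane, and *Sema7a* encodes one that is held by a lipid anchor. The intracellular part of a plexin acts on small GTPases of the RAS and RAP type, so that a bound ligand alters adhesion and the cytoskeleton. In the embryonic mouse lung, semaphorins are known as regulators of branching and of vessel growth.

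The tissues were the distal tip epithelium and the mesenchyme around it, separated by dispase digestion and needles from wild type mouse lungs at E12.5, with 4 samples of each. The mesothelium was dissected along with the mesenchyme, and the series names 4 embryos without tying them to samples. Each of the 4 arrays carried an epithelium sample in Cy3 and a mesenchyme sample in Cy5, never the reverse, so tissue and dye cannot be told apart in any difference given here. The sample labels give the strain as C57bl/6J and the series as BALb/c, and the labels call the material an organ homogenate. No group carried a transgene or a treatment. All values are deposited normalized signals on a log2 scale, where 1 unit is a doubling, and every difference is epithelium minus mesenchyme. Signals of different genes come from different probes, so their levels were not set against each other.

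Samples of 1 tissue correlated at 0.995 to 0.997 across genes, and samples of different tissues at 0.964 to 0.968. All 10 epithelial markers were higher in the epithelium, with a mean signal over the list of 12.43 to 12.54 in the epithelium samples and 7.47 to 8.0 in the mesenchyme samples. All 10 mesenchymal markers were lower in the epithelium (8.50 to 8.58, against 10.01 to 10.09 in the mesenchyme). Markers of other cells were also split between the tissues. All 10 endothelial genes were lower in the epithelium (5.62 to 5.95, against 9.18 to 9.23 in the mesenchyme), as were all 5 erythroid genes analysed (8.10 to 8.22, against 11.62 to 11.69), all 4 leukocyte genes analysed (6.21 to 6.34, against 8.11 to 8.16) and 4 of 6 mesothelial genes, the other two being higher there (5.13 to 5.26, against 7.02 to 7.07). Of 6 smooth muscle genes, 5 were higher in the epithelium (11.41 to 11.54, against 9.01 to 9.20 in the mesenchyme), and all 6 genes of neurons and neural crest analysed were higher there too (6.27 to 6.36, against 4.76 to 4.86). The part of these cells in the differences below was not tested, and in such samples fewer cells of a type and less RNA per cell cannot be told apart. The list means hide single samples that stood apart. The epithelial marker *Krt8* was 12.25 in mesenchyme sample 4 and 8.95 to 9.42 in the other mesenchyme samples. The endothelial marker *Pecam1* was 5.32 in epithelium sample 2 and 3.30 in the other epithelium samples.

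At a limma adjusted p under 0.05, the epithelium had higher signals of 9 of the 30 genes and lower signals of 10, while 11 did not pass. The share that passed was 63.3%, against 45.9% of all genes tested, with 21.2% of all genes higher and 24.8% lower in the epithelium. A difference of at least 1 in size that passed was found in 13 of the 30 genes, against 13.9% of all genes, with 5 genes higher in the epithelium (6.69% of all genes) and 8 lower there (7.24% of all genes). The median of the 30 differences was 0.06, close to the -0.03 of all genes, whereas the median size was 0.71, against 0.24. All 4 samples of 1 tissue lay above all 4 of the other for 20 genes, against 44.3% of all genes. Only 2 of the 30 genes were among the dimmest 30% of genes, and the part of signal level in these comparisons was not tested.

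**Figure D1:**
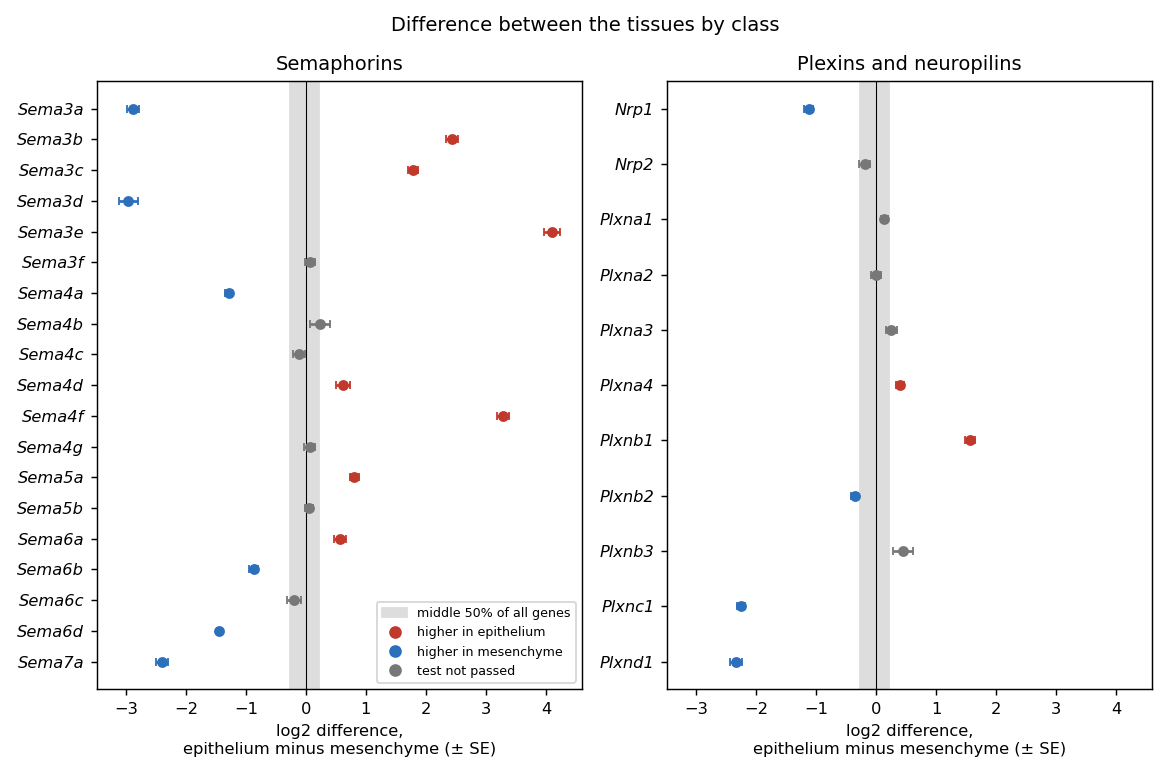
Log2 difference between epithelium and mesenchyme for each semaphorin (left) and each plexin and neuropilin (right), as points with the SE from limma (n = 4 samples of each tissue). The gray band holds the middle 50% of all genes, and the points range from -2.96 for *Sema3d* to 4.10 for *Sema3e*.

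Of 19 semaphorins, 7 were higher and 6 lower in the epithelium, so 68.4% passed, and of 11 receptors, 2 were higher and 4 lower there, so 54.5% passed. Of all genes, 45.9% passed, with 21.2% higher and 24.8% lower in the epithelium. The share of receptors that was higher, 18.2%, lay near that of all genes. The median size of the difference was 0.87 for the ligands and 0.40 for the receptors. The ligands ranged from -2.96 to 4.10 and the receptors from -2.33 to 1.56. No test was made of ligands against receptors, since the genes of a family are not replicates. With the array as a replicate block, the counts of receptors were 5 higher and 5 lower in the epithelium, because *Plxna1*, *Plxna3*, *Plxnb3* and *Nrp2* also passed. The ligands stayed at 7 higher and 6 lower in that fit, so a larger share of receptors than of ligands then passed. The share of all genes that passed in that fit was 57.4%, with 26.5% higher and 30.9% lower in the epithelium. With a loess fit within each array to remove a dye bias that depends on signal, 5 receptors were higher and 4 lower there, against 23.1% and 22.9% of all genes, 46.0% in all.

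The secreted class 3 semaphorins held both ends of the range. Of 6 genes, 3 were higher in the epithelium, 2 were lower there and 1 did not pass (83.3% passed, against 45.9% of all genes). *Sema3e* encodes a ligand that binds plexin D1 without a neuropilin and guides vessels. Its signals were 9.11, 9.14, 9.35 and 9.33 in the epithelium, against 4.80, 5.06, 5.22 and 5.45 in the mesenchyme. The tissues did not overlap, and the signal was 17.1-fold higher in the epithelium (4.10 on the log2 scale with an SE of 0.14 and a limma adjusted p of 2.95e-08). A second *Sema3e* spot gave 4.13, while 2 dim spots gave 1.45 and -0.26.

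*Sema3b*, whose product binds neuropilin 2, had signals of 8.80, 8.81, 8.60 and 8.92 in the epithelium, against 6.37, 6.31, 6.18 and 6.53 in the mesenchyme. It was 5.40-fold higher in the epithelium (2.43 on the log2 scale with an SE of 0.09 and a limma adjusted p of 7.72e-08), with no overlap. *Sema3c*, which encodes a ligand of both neuropilins that is needed for the outflow tract of the mouse heart, had 6.32, 6.39, 6.26 and 6.24 in the epithelium, against 4.50, 4.75, 4.43 and 4.43 in the mesenchyme. The difference of 1.78 (SE 0.08, adjusted p = 2.59e-07 from limma) corresponded to 3.43-fold, and the other spot gave 1.51. Every epithelium sample thus lay above every mesenchyme sample for all 3 genes.

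*Sema3d* and *Sema3a* lay on the opposite side. *Sema3d*, which encodes a ligand of neuropilin 1 that guides pulmonary veins in the mouse, had signals of 4.25, 4.15, 4.36 and 3.63 in the epithelium, against 7.19, 7.14, 7.07 and 6.82 in the mesenchyme. It was 7.76-fold lower in the epithelium (-2.96 on the log2 scale with an SE of 0.16 and a limma adjusted p of 6.90e-07). *Sema3a* encodes the classical repellent of axons, which acts through neuropilin 1 and A plexins. Its signals were 5.74, 5.52, 5.40 and 5.54 in the epithelium, against 8.66, 8.45, 8.26 and 8.34 in the mesenchyme, a 7.37-fold lower signal in the epithelium (-2.88 on the log2 scale with an SE of 0.10 and a limma adjusted p of 4.77e-08). For both genes the lowest mesenchyme sample stood well above the highest epithelium sample. A second spot of *Sema3a* gave -2.87, but its 2 dimmest spots gave -0.22 and -0.08. The median spot was taken as the dimmer of the middle spots by signal, here the spot at -0.22. With that spot in place of the brightest, *Sema3a* did not pass (adjusted p = 0.211 from limma).

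*Sema3f*, which encodes a ligand of neuropilin 2, did not pass, with 7.20, 7.34, 7.55 and 7.31 in the epithelium, against 7.15, 7.30, 7.41 and 7.28 in the mesenchyme (0.07 on the log2 scale with an SE of 0.09 and a limma adjusted p of 0.595). The tissues overlapped, and its other spot gave -0.05. *Sema3b* and *Sema3f*, the ligand genes of neuropilin 2 on chromosome 9, lie with 3 protein-coding genes between them.

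**Figure D2:**
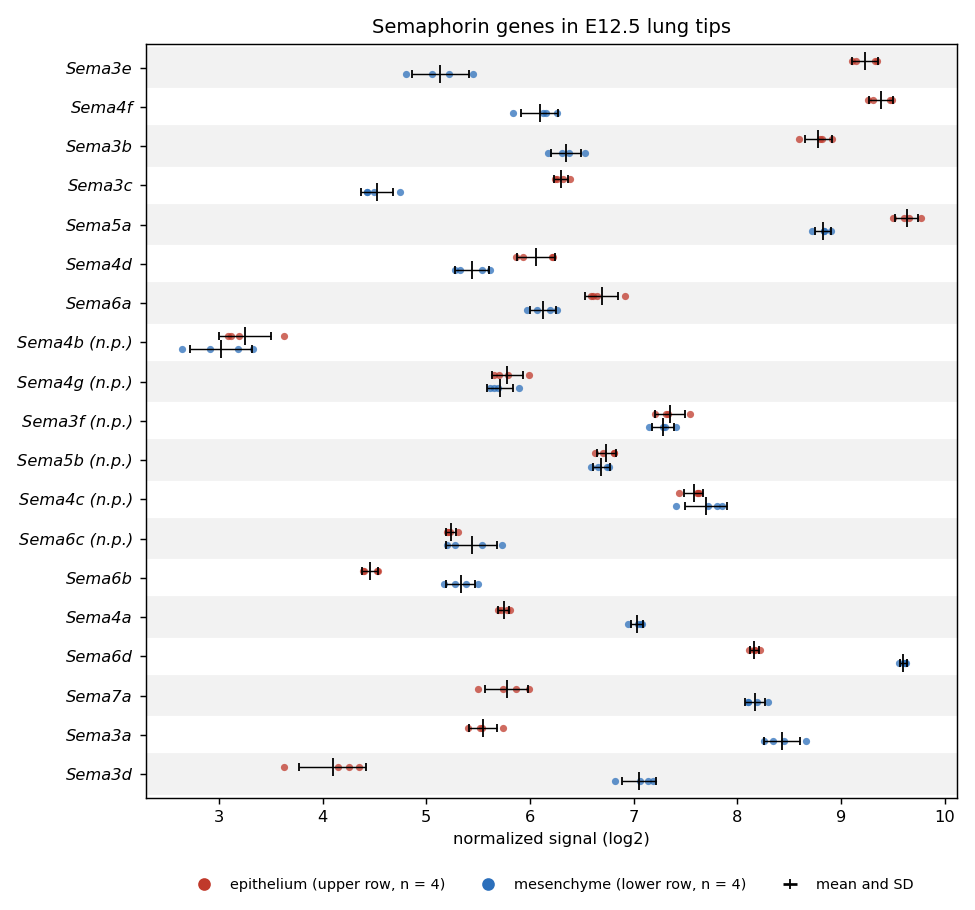
Normalized signal (log2) of the 19 semaphorin genes in each sample, with the mean and SD of 4 epithelium samples (upper row of each gene) and 4 mesenchyme samples (lower row), ordered by difference; n.p. marks genes that did not pass the test. The tissues are far apart for *Sema3e*, *Sema4f* and *Sema3b* at the top and for *Sema7a*, *Sema3a* and *Sema3d* at the bottom.

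The class 3 genes on chromosome 5 formed a run in which the direction switched. By the order of gene starts in RefSeq (GRCm38.p6), no protein-coding gene lies between *Sema3d* and *Sema3a*, 3 lie between *Sema3a* and *Sema3e*, and 15 between *Sema3e* and *Sema3c*. The log2 differences along the run were -2.96, -2.88, 4.10 and 1.78, with *Sema3d* and *Sema3a* lower and *Sema3e* and *Sema3c* higher in the epithelium. The 250 bases before the RefSeq start of each of the 4 genes, and of *Sema4f*, the class 4 gene with the widest difference, are shown 5′ to 3′ on the strand of the gene, to set the neighboring genes of opposite direction side by side. Capitals mark matches on either strand to CACCTG (the E2-box bound by ZEB and SNAIL repressors), TGTTTAC (forkhead), CCGGAAG (ETS) or GGGCGG (GC box).
Sema3d (chr5:12382916-12383165, plus strand): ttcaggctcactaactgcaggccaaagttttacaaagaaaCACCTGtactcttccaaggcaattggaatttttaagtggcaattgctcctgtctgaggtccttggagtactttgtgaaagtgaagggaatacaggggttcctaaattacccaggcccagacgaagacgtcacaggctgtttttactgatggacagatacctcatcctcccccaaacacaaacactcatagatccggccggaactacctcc
Sema3a (chr5:13396534-13396783, plus strand): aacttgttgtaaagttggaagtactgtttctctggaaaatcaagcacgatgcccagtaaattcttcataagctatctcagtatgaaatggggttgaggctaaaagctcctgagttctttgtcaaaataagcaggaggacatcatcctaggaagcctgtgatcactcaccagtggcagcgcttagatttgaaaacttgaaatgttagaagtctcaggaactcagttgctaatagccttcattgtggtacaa
Sema3e (chr5:14025026-14025275, plus strand): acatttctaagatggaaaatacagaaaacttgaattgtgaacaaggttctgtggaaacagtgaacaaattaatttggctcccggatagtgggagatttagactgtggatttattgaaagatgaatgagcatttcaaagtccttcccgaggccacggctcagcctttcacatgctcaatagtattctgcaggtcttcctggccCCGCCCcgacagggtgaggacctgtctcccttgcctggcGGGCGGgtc
Sema3c (chr5:17574566-17574815, plus strand): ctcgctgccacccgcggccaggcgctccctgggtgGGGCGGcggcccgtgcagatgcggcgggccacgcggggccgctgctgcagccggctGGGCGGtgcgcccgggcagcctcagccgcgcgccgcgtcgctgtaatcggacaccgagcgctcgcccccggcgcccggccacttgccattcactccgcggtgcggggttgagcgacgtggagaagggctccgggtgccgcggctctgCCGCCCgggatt
Sema4f (chr6:82939770-82940019, minus strand): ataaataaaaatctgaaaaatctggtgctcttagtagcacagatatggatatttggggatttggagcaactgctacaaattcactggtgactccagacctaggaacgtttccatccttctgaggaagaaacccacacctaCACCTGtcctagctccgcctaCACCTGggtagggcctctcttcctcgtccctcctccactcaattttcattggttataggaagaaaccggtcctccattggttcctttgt
No match overlapped another in these windows. The E2-box was found once in the window of *Sema3d* and at 2 places in that of *Sema4f*, and the GC box at 2 places in *Sema3e* and at 3 in *Sema3c*. No match to any of the 4 was found in the window of *Sema3a*, and the forkhead and ETS letters were found in none of the 5. Of 32851 RefSeq windows of the same length, 17.2% held the E2-box, 3.17% the forkhead motif, 6.91% the ETS motif and 32.7% the GC box. The ratio of observed to expected CpG was 1.02 in *Sema3c* and 0.488 in *Sema3e*, against 0.296 in *Sema3d*, 0.194 in *Sema3a* and 0.311 in *Sema4f*, with a median of 0.374 over all windows. A match describes the sequence and is not a site of binding. Of the 30 genes, 25 had a window in this table.

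Among the membrane-bound ligands of classes 4 to 6, 4 of 12 genes were higher and 3 lower in the epithelium (58.3% passed, against 45.9% of all genes). The share that was higher was 33.3%, against 21.2% of all genes, while the share that was lower lay near the 24.8% of all genes. *Sema4f*, which encodes a transmembrane ligand, had signals of 9.31, 9.26, 9.48 and 9.49 in the epithelium, against 6.26, 5.84, 6.13 and 6.15 in the mesenchyme. This was a 9.78-fold higher signal in the epithelium with wide separation of the samples (3.29 on the log2 scale with an SE of 0.10 and a limma adjusted p of 1.89e-08). *Sema4d* encodes a ligand of plexin B1 that is also found on lymphocytes. It had 6.22, 6.21, 5.87 and 5.94 in the epithelium, against 5.62, 5.54, 5.28 and 5.33 in the mesenchyme (0.62 on the log2 scale with an SE of 0.11 and a limma adjusted p of 0.00189). Its samples did not overlap, but the gap was small, and its dim second spot gave 1.57.

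*Sema4a*, which encodes a ligand of B plexins and plexin D1 with roles in the retina and in immune cells, went the other way. Its signals were 5.81, 5.72, 5.78 and 5.69 in the epithelium, against 6.95, 7.07, 7.08 and 7.04 in the mesenchyme (-1.29 on the log2 scale with an SE of 0.06 and a limma adjusted p of 1.42e-07). The spread within each tissue was the smallest of the 6 class 4 genes, with an SD of 0.05 in the epithelium, against 0.06 in the mesenchyme. *Sema4b* (0.24, SE 0.17), *Sema4c* (-0.12, SE 0.10) and *Sema4g* (0.07, SE 0.09) did not pass, and *Sema4b* was among the dimmest 30% of genes. *Sema4c* and *Sema4g* encode ligands of plexin B2. For *Sema4c* the second spot gave 0.27 (adjusted p = 0.015 from limma over all spots), against the sign of the first.

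Class 5 semaphorins carry thrombospondin repeats. *Sema5a* was higher in the epithelium, with 9.51, 9.66, 9.60 and 9.77 there, against 8.83, 8.84, 8.72 and 8.91 in the mesenchyme (0.81 on the log2 scale with an SE of 0.07 and a limma adjusted p of 1.80e-05). *Sema5b* did not pass on its brightest spot (0.05, SE 0.07, adjusted p = 0.601 from limma), while its 2 other spots gave -0.67, which passed in the fit over all spots (limma adjusted p 0.00944), and -0.17. With the mean of its spots (limma adjusted p 0.0258) or the median spot (limma adjusted p 0.0106) the gene was lower in the epithelium. The class 6 genes, whose products are ligands of A plexins, were divided. *Sema6d* had 8.22, 8.17, 8.11 and 8.16 in the epithelium, against 9.62, 9.61, 9.63 and 9.56 in the mesenchyme, with no overlap and a 2.71-fold lower signal in the epithelium (-1.44 on the log2 scale with an SE of 0.05 and a limma adjusted p of 3.42e-08). Its other spots gave -1.03 and -0.37. *Sema6b* was also lower in the epithelium (-0.87, SE 0.08), with 4.39 to 4.53 there and 5.17 to 5.50 in the mesenchyme. *Sema6a* was higher in the epithelium, with 6.59 to 6.92 there and 5.98 to 6.26 in the mesenchyme (0.57 with an SE of 0.10, limma adjusted p 0.0012), but not with the mean of its 3 spots (0.16, adjusted p = 0.237 from limma). *Sema6c* did not pass (-0.20, SE 0.11), but was lower in the epithelium with the mean of its spots (-0.28, limma adjusted p 0.036).

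*Sema7a*, the only gene of class 7, encodes a ligand of plexin C1 and of beta1 integrins. It had signals of 5.50, 5.87, 5.99 and 5.74 in the epithelium, against 8.10, 8.10, 8.30 and 8.19 in the mesenchyme. The tissues lay far apart, and the signal was 5.27-fold lower in the epithelium (-2.40 on the log2 scale with an SE of 0.11 and a limma adjusted p of 1.87e-07).

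Among the receptors, the differences were widest for the plexins C1 and D1. *Plxnd1*, known from embryonic endothelium, encodes the receptor of SEMA3E. It had signals of 6.69, 6.92, 7.02 and 6.71 in the epithelium, against 9.17, 9.21, 9.28 and 9.01 in the mesenchyme. It was 5.04-fold lower in the epithelium (-2.33 on the log2 scale with an SE of 0.09 and a limma adjusted p of 9.76e-08), without overlap. The 10 endothelial markers were lower in the epithelium as well, with differences of -4.68 to -1.58 and a median of -3.57, and their part in the difference of *Plxnd1* was not tested. *Plxnc1*, the receptor gene for SEMA7A, had 7.34, 7.20, 7.41 and 7.32 in the epithelium, against 9.59, 9.51, 9.64 and 9.52 in the mesenchyme. Its signal was 4.75-fold lower in the epithelium (-2.25 on the log2 scale with an SE of 0.06 and a limma adjusted p of 1.19e-08), and the other spot gave -1.52.

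*Plxnb1* stood alone among the receptors as higher in the epithelium by more than 1. Its product binds SEMA4D and can associate with the receptor MET. The signals were 10.86, 10.94, 10.74 and 10.90 in the epithelium, against 9.37, 9.45, 9.18 and 9.20 in the mesenchyme, 2.95-fold higher in the epithelium (1.56 on the log2 scale with an SE of 0.08 and a limma adjusted p of 4.91e-07). Both spots pointed the same way, the second by 1.31. *Plxnb2*, which encodes a receptor of several class 4 semaphorins, was lower in the epithelium by a small margin, with 10.84, 11.07, 10.92 and 10.95 there, against 11.23, 11.39, 11.29 and 11.31 in the mesenchyme (-0.36 on the log2 scale with an SE of 0.07 and a limma adjusted p of 0.00176). *Plxnb3*, one of the dimmest 30% of genes, did not pass (0.45, SE 0.17, adjusted p = 0.065 from limma), but passed with the array as a replicate block (adjusted p = 0.00667 from limma).

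The 4 A plexins, which signal for class 3 ligands held by neuropilins and for class 6 ligands, differed little. *Plxna4* was higher in the epithelium, with 6.75, 6.67, 6.79 and 6.67 there, against 6.43, 6.31, 6.23 and 6.33 in the mesenchyme (0.40 on the log2 scale with an SE of 0.06 and a limma adjusted p of 0.000627). Its second spot, among the dimmest 30%, gave -0.01. Neither *Plxna1* (0.14 with an SE of 0.06, limma adjusted p 0.0963) nor *Plxna3* (0.25 with an SE of 0.09, limma adjusted p 0.0546) passed, although the epithelium sample had the higher signal of both on all 4 arrays. Both passed with the array as a replicate block (adjusted p = 0.024 for *Plxna1* and 0.00517 for *Plxna3*). *Plxna3* also passed under several other settings, with adjusted p of 0.0146 to 0.0459. *Plxna2* had a difference of -0.01 (SE 0.08, adjusted p = 0.963 from limma), and its 2 dimmer spots gave 0.09 and 0.37.

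The neuropilins were not alike. *Nrp1*, whose product also binds VEGF, had signals of 6.04, 5.99, 6.08 and 6.11 in the epithelium, against 7.05, 7.37, 7.21 and 7.11 in the mesenchyme. It was 2.18-fold lower in the epithelium without overlap (-1.13 on the log2 scale with an SE of 0.08 and a limma adjusted p of 3.50e-06). Its other spots gave -0.25 and -0.69, and with the median spot the gene did not pass (adjusted p = 0.199 from limma). *Nrp2*, the main partner of SEMA3F, had 11.62, 11.40, 11.45 and 11.26 in the epithelium, against 11.81, 11.57, 11.59 and 11.53 in the mesenchyme. The samples overlapped and the difference of -0.19 (SE 0.09, adjusted p = 0.13 from limma) did not pass, but the mesenchyme sample was the higher on all 4 arrays, and with the array as a replicate block the gene passed (adjusted p = 0.00779 from limma). Its second spot, among the dimmest 30%, gave 0.26.

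**Figure D3:**
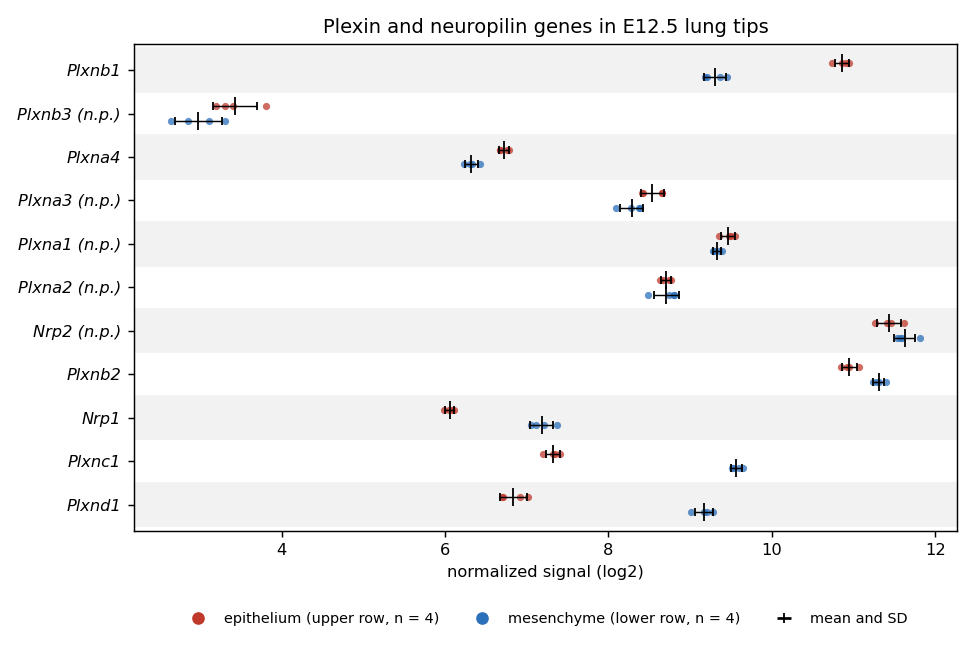
Normalized signal (log2) of the 9 plexin and 2 neuropilin genes in each sample, with the mean and SD of 4 epithelium samples (upper row of each gene) and 4 mesenchyme samples (lower row), ordered by difference; n.p. marks genes that did not pass the test. *Plxnb1* at the top is higher in the epithelium by 1.56, while *Plxnc1* and *Plxnd1* at the bottom are lower there by a difference of -2.25 and -2.33.

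Known partners were then set side by side. Of 28 listed pairs of a ligand and a receptor, 27 were analysed, and in 12 both genes passed. The pair of *Sema3g* with *Nrp2* was not analysed here. These 12 pairs share genes and so are not independent of each other. Their number also depends on the spot and the fit. With the median spot, *Nrp1*, *Plxna4*, *Sema3a* and *Sema6a* did not pass. Where a gene had an even number of spots, as *Plxna4* and *Sema3a* did, this was the dimmer of the middle spots. With the array as a replicate block, *Plxna1*, *Plxna3*, *Plxnb3* and *Nrp2* passed as well. In 4 of the 12 the ligand was higher and the receptor lower in the epithelium, in 3 the ligand was lower and the receptor higher there, and in 5 both lay on the same side. *Sema3e* with *Plxnd1* was the widest opposed pair, with 4.10 for the ligand and -2.33 for the receptor. *Sema3c* was opposed both to *Plxnd1* and to *Nrp1* (1.78, against -2.33 and -1.13), and *Sema4d* to *Plxnb2* (0.62 and -0.36). The opposite arrangement, with the receptor higher in the epithelium, was found for *Sema4a* with *Plxnb1* (-1.29 and 1.56), and more weakly for *Sema3a* and *Sema6b* with *Plxna4* (0.40 for the receptor). *Sema4a* was listed only with *Plxnb1*. Its pairs with *Plxnb2* (-0.36) and *Plxnd1* (-2.33), both lower in the epithelium like *Sema4a*, were not on the list and not counted. On the same side in the mesenchyme were *Sema7a* with *Plxnc1* (-2.40 and -2.25) and *Sema3a* and *Sema3d* with *Nrp1*. On the same side in the epithelium were *Sema4d* with *Plxnb1* (0.62 and 1.56) and *Sema6a* with *Plxna4* (0.57 and 0.40).

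**Figure D4:**
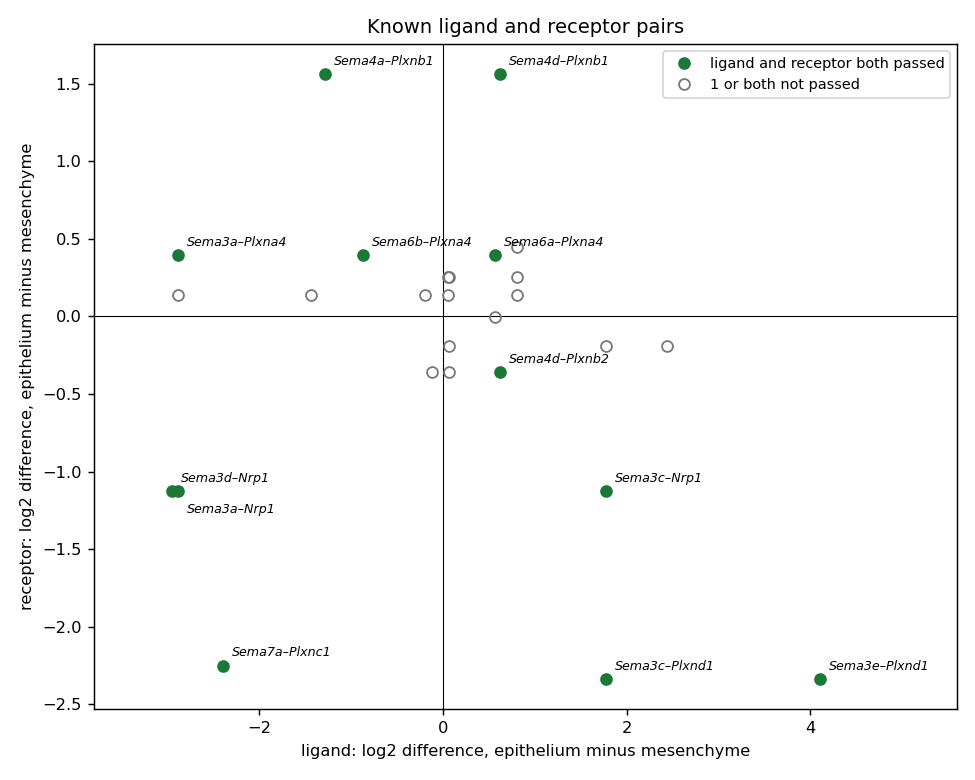
Log2 difference (epithelium minus mesenchyme) of the ligand on the horizontal axis and of its receptor on the vertical axis, 1 point for each of 27 known pairs; filled points mark the 12 pairs in which both genes passed the test. The lower right corner, with the ligand higher and the receptor lower in the epithelium, holds *Sema3e* and *Sema3c* with *Plxnd1*.

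Other genes of semaphorin signaling were taken from lists of co-receptors, VEGF genes that share the neuropilins, GTPases and effectors. Of 54 listed genes, 52 were analysed, and 12 of these were higher and 23 lower in the epithelium, with 67.3% passing and a median difference of -0.11. These shares were 23.1% higher and 44.2% lower, against 21.2% and 24.8% of all genes, so the share that was higher lay near that of all genes. All 7 VEGF genes were lower in the epithelium, led by the VEGF receptor genes *Kdr* (-4.23, SE 0.09), which is also one of the endothelial markers, and *Flt1* (-3.71, SE 0.08). *Vegfc*, which encodes a lymphatic growth factor, differed by -2.08 and the receptor gene *Flt4* by -1.49. Of 12 co-receptor genes, 2 were higher and 4 lower in the epithelium, so that 6 of the 12 passed, near the 45.9% of all genes. *Met*, which encodes the receptor of hepatocyte growth factor and can associate with B plexins, had a mean signal of 9.60 in the epithelium, against 6.95 in the mesenchyme (2.65 on the log2 scale with an SE of 0.09 and a limma adjusted p of 2.63e-08). Its relative *Mst1r* lay on the other side (-1.05, SE 0.09). *Itga1*, which encodes the alpha partner of a beta1 integrin, was lower in the epithelium (-0.75, SE 0.10), as was the cell adhesion gene *Nrcam* (-0.67, SE 0.06).

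Of 16 GTPase genes and regulators analysed, 4 were higher and 9 lower in the epithelium (81.3% passed, against 45.9% of all genes). The median size of their differences was 0.247, near the 0.243 of all genes, so most differences of this list were small. The RND proteins, small GTPases that bind the intracellular part of plexins, did not move together, with *Rnd2* higher in the epithelium (1.78, SE 0.09) and *Rnd3* (-1.51, SE 0.08) and *Rnd1* (-1.31, SE 0.11) lower there. *Farp2*, which encodes a GTPase activator downstream of SEMA3A, was lower in the epithelium (-1.09, SE 0.07). Of 17 kinase and effector genes analysed, 6 were higher and 3 lower in the epithelium, and this share of 52.9% was also near the 45.9% of all genes. *Mical2*, which encodes an enzyme that oxidizes actin (2.02, SE 0.06), and *Dpysl5*, of the collapsin response mediators (1.88, SE 0.16), were higher in the epithelium. *Crmp1*, of the same family as *Dpysl5* (-1.29, SE 0.09), and the tyrosine kinase gene *Fes* (-1.90, SE 0.06) were lower there. The genes of neurons and neural crest, higher in the epithelium as given above, moved with *Dpysl5*, and their part in its difference was not tested.

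More than 1 spot was present for 20 of the 30 genes, with 29 spots besides the brightest ones, of which 10 were among the dimmest 30% of signals. Of the 19 such spots that belong to genes that passed, 16 had the same sign as the brightest spot and 11 passed with that sign, while none passed with the opposite sign, in a limma fit over all spots. The genes that did not pass on their brightest spot had 10 other spots, of which 5 passed. Of these 5, the spots of *Nrp2* (0.26), *Plxna2* (0.37), *Sema4c* (0.27) and *Sema5b* (-0.67) had the sign opposite to the brightest spot, and that of *Plxna3* (0.35) had the same sign. The remaining 10 genes, among them *Sema3b*, *Sema3d*, *Sema4a*, *Sema4f*, *Sema7a* and *Plxnd1*, had 1 spot each, so no second spot bears on their differences.

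**Figure D5:**
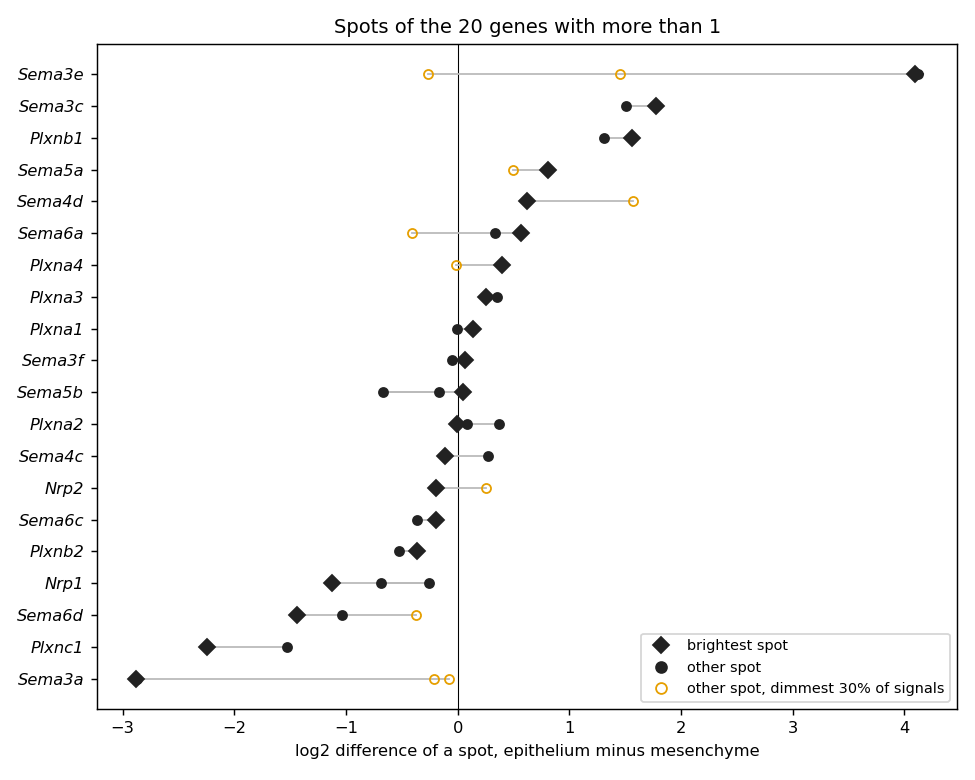
Log2 difference (epithelium minus mesenchyme) of every spot of the 20 genes with more than 1 spot, where diamonds mark the brightest spot, used for the gene, and circles the other spots, open where the spot is among the dimmest 30% of signals. The bright pair of spots of *Sema3e* lies near 4.10, while its dim spots lie at 1.45 and -0.26.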

How the data were processed

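Signals of epithelium and mesenchyme from E12.5 mouse lung tips were measured on 4 Agilent oligonucleotide arrays of 2 colors. The table deposited by the authors holds log2 signals, with each dye treated as a channel of its own. Per the methods of the study, the authors applied normexp with an offset of 1 to mean spot signals, using the negative controls, followed by logarithms, quantile normalization and averaging of replicate spots, although the table has a value for each feature. The methods name Cy3 alone, whereas the labels name both dyes. The base of the logarithm is not given in the sources used here and was read as 2 from the range of the values, and the deposited table holds no detection calls. Precision is limited by the number of arrays.

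Of 45220 features, 33653 had 1 gene name in the platform annotation, and 33517 of these matched RefSeq by gene ID. Features with several names (56) or with a missing value in any sample (523) were left out. The spot with the highest mean over the 8 samples stood for each gene. Tissues were compared unpaired in limma 3.58.1 (lmFit, then eBayes; R 4.3.3), on 18996 genes, with Benjamini-Hochberg adjustment and a threshold of 0.05. Counts and medians of lists are descriptions without a test. The fit was also run on simulated data with independent samples and few changed genes. That simulation held no pairing within arrays, so it could not check the unpaired fit in this respect. Tables and plots were made with pandas 2.3.3 and matplotlib 3.10.9 in Python 3.11.15.

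Every family member is reported, with values per sample for those that passed with a difference of at least 1 and for family members set beside them, and of each signaling list at most 4 of the widest differences among the genes that passed. Members, lists and pairs were chosen with earlier results of these data known. Since the sources do not tie samples to embryos, the spread behind each p-value is that among these samples and may be technical.

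The labels place samples of the same number on 1 array. Their deviations from the tissue mean correlated at 0.35, 0.62, 0.53 and 0.47, so the numbers pair the samples. Alternatives were the array as a replicate block, leaving out each sample or array, the mean or the median spot, leaving out the dimmest 30% of genes, a variance trend with robust fitting, loess within arrays, scaling to the 75th percentile and keeping missing values. The median spot was the middle one by mean signal, or the dimmer of the middle ones where a gene had an even number of spots. Promoter windows came from RefSeq (GRCm38.p6).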

Additional observations from a re-analysis of the deposited data

Results flagged for a closer look

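In the epithelium, the lowest of the 4 values of *Sema4c*, that of sample 4, was 7.44, apart from the other 3, which lay between 7.62 and 7.64. The mesenchyme sample of the same array, at 7.41, was also the lowest of its tissue. The gap was 0.899 of the range of the group. It was the only such value among 60 groups of 4 samples, for which chance gives about 3. Without mesenchyme sample 4 the gene passed limma's test (log2 difference -0.21, adjusted p = 0.0478), and with all samples it did not.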

How the results depend on the processing

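Each difference was computed under 20 alternatives, and 16 of the 30 genes kept their sign and their side of the threshold under all of them. These are *Sema4b* and 15 of the 19 genes that passed. The exceptions among the 19 were *Nrp1* and *Sema3a* with the median spot, *Plxna4* with the median spot and *Sema6a* with the mean or the median spot. For *Plxna4*, *Nrp2*, *Sema4c*, *Plxna1* and *Sema3f*, which have 2 spots each, the median spot is the dimmer one. The sign turned for 8 genes. With a passing or lost call, it turned for *Sema5b* with the mean of all spots (-0.26) and the median spot (-0.67), and with the median spot for *Nrp2* (0.26), *Plxna4* (-0.013) and *Sema4c* (0.27). Without passing before or after, it turned with the median spot for *Plxna1* (-0.0089), *Sema3f* (-0.048) and *Plxna2* (0.087), with the mean of all spots for *Plxna2* (0.15), *Nrp2* (0.032) and *Sema4c* (0.077), without array 1 for *Sema4g* (-0.035), and for *Plxna2*, *Sema3f* and *Sema4g* also under further settings at differences under 0.05 in size. The number of receptors higher in the epithelium, 2, was 5 with the array as a replicate block and 5 with loess within arrays. Of the 30 genes, the block changed no other call than those of *Plxna1*, *Plxna3*, *Plxnb3* and *Nrp2*. Leaving out samples or arrays gave 9 to 10 genes higher and 10 to 11 lower in the epithelium, with 7 ligands higher each time and 2 to 3 receptors higher. Of all 18996 genes, 3431 to 3870 were higher and 3999 to 4570 lower in the epithelium in the same fits. Counted only with a difference of at least 1, a choice made after seeing the data, 5 genes were higher in the epithelium, 4 ligands and 1 receptor. The causes of these changes were not tested.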
